A study of Mus musculus with 11 samples.

Results

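The lysosome's proton pump, a set of its hydrolases and cofactors, and a set of its membrane proteins were followed here as 47 genes, out of 33340 genes present in both deposited tables. The set was taken by gene symbol: 26 genes were given by name and 21 by a symbol that starts with Atp6v0 or Atp6v1, with pseudogenes left out, and only genes present in both tables with positive values were kept. By role the set holds 12 genes of the pump's V1 sector, 9 of its V0 sector, 2 accessory subunits, 15 hydrolases, 3 soluble cofactors, 5 membrane proteins and 1 transcription factor. In each comparison 42 of the 47 genes had enough reads to be tested. The other 5, Atp6v1b1, Atp6v1c2, Atp6v1g3, Atp6v0a4 and Atp6v0e2, had a mean of at most 0.536 CPM (reads scaled by the library total and the authors' size factor) in any group.

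RNA was sequenced from macrophages of C57BL/6 mice, 6 to 8 weeks old, that carried subcutaneous Lewis lung carcinoma (LLC), a transplantable mouse lung tumor line, 14 days after 500000 cells were given. Sin1 is the product of Mapkap1 and a subunit of mTOR complex 2. WT_TAM (4 libraries) are tumor-associated macrophages of Sin1fl/fl mice, in which the gene is floxed but no Cre is present, and KO_TAM (4 libraries) are those of LysMCre;Sin1fl/fl mice. WT_SP (3 libraries) are splenic macrophages of tumor-bearing Sin1fl/fl mice, so all 3 groups carry the floxed allele and come from mice with tumors. LysM-Cre is expressed from the Lyz2 locus, and it is active in myeloid cells in general, not in macrophages alone. The gate for tumor macrophages was CD45+, CD11b+ and F4/80+ without Ly6G or Ly6C; the splenic gate was CD45+, F4/80+ and low in CD11b without TCRβ, Ly6G or Ly6C. Nothing in the labels ties each library to its own mouse, so a p-value here speaks for the spread among libraries, and that spread may be technical.

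The vacuolar ATPase pumps protons into lysosomes. Its V1 sector in the cytosol hydrolyses ATP, and its V0 sector in the membrane carries the protons. The acid lets hydrolases break down proteins, lipids and glycans that macrophages take up. Membrane proteins such as LAMP1 and LAMP2 line the organelle, NPC1 and NPC2 export cholesterol from it, and TFEB is a transcription factor that binds E-box motifs in promoters of many lysosomal genes and is held in the cytosol when mTOR complex 1 is active.

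Promoters are shown first, because a TFEB-type motif can be looked for in them. RefSeq promoters of GRCm38.p6 were at hand for 38 of the 47 genes, as windows of 300 bases. The motif TCACGTGA, which is its own reverse complement and so is read on both strands at once, was present in a window of 5 of these 38 genes (13.16%), against 1.125% of 27025 genes with such windows. The shorter E-box CACGTG, which every TCACGTGA also contains, was present in 10 of 38 (26.32%), against 8.093% of genes. These counts describe letters in a window and say nothing on binding. Such motifs are known from promoters of lysosomal genes, so a high share in a set chosen as lysosomal is no new result. The part of the motif in the expression differences was not tested. The 5 sequences below run 5′ to 3′ on the gene's strand from 250 bases before a RefSeq start to 30 bases from it on, with TCACGTGA in capitals. They are promoter windows of the genes for V1 subunit A (Atp6v1a, chr16:44139230-44139509, minus strand), V0 subunits d1 (Atp6v0d1, chr8:105566035-105566314, minus strand) and e (Atp6v0e, chr17:26676146-26676425, plus strand), alpha-galactosidase A (Gla, chrX:134600976-134601255, minus strand) and the calcium channel mucolipin 1 (Mcoln1, chr8:3500269-3500548, plus strand).
Atp6v1a: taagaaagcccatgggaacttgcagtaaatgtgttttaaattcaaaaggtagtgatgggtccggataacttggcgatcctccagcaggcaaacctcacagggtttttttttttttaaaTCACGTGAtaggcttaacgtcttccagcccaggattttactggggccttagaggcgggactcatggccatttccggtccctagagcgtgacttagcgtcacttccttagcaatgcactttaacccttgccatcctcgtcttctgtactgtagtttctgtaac
Atp6v0d1: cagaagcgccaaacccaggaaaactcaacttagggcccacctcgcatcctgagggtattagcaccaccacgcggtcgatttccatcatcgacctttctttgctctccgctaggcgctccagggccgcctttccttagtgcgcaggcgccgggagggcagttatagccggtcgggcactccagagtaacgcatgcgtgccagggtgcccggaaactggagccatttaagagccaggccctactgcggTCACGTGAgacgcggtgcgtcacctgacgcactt
Atp6v0e: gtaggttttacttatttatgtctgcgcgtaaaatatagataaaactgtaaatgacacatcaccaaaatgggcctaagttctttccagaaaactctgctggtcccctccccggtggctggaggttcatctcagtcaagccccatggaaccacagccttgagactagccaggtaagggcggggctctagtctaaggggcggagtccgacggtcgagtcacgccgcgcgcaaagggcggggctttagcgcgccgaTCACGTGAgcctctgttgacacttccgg
Gla: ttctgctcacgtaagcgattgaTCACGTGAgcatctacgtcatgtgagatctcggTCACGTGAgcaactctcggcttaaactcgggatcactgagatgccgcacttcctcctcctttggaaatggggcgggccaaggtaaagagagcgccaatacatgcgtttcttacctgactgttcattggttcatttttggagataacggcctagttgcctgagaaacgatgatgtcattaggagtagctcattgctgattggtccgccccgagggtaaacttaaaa
Mcoln1: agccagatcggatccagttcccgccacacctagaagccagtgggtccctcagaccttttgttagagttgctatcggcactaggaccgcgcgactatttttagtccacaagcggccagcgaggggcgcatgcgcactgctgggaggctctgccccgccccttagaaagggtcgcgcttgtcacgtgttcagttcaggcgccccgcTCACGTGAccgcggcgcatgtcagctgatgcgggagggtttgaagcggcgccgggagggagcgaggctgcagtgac
Gla holds the motif 2 times and each of the other 4 promoters 1 time. Between tumor and spleen, Gla, Atp6v1a and Atp6v0e were called higher while Atp6v0d1 and Mcoln1 were called higher only in some alternatives, such as without WT_TAM replicate 4.

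Library totals were between 7639550 reads (WT_TAM replicate 4) and 13118534 reads, and 3 reads corresponded to 0.211 to 0.492 CPM, a limit that covers counting error only. Mapkap1, the targeted gene, had 44.0, 54.1, 43.3 and 45.9 CPM in KO_TAM and 71.1, 66.4, 59.7 and 30.7 CPM in WT_TAM. KO_TAM therefore lay below 3 of the 4 WT_TAM libraries, while WT_TAM replicate 4 was the lowest of all 8. The log2 difference of Mapkap1 was -0.22 ± 0.26 (SE; limma adjusted p = 0.659), and -0.49 ± 0.13 without WT_TAM replicate 4 (limma adjusted p = 0.164). Reads summed over the gene do not show whether the floxed part was deleted, so this checks the labels only in part. That library also stood apart over all genes: pairs with it had a chi-square per degree of freedom of 228 to 268, against 21.4 to 73.2 for the other WT_TAM pairs. It was the lowest WT_TAM library for 26 of the 42 tested genes of the set and the highest for 13. The macrophage markers Csf1r and Adgre1 were read in every library, at no less than 960 and 276 CPM.

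The first comparison asks how tumor macrophages differ from splenic macrophages of mice with the same alleles. Most of the lysosomal genes were higher in the tumor. Of 42 genes tested, 30 were higher in WT_TAM and 1, Tfeb, was lower (limma, Benjamini-Hochberg adjusted p under 0.05). That is 73.8% called, where 46.5% of all 14334 genes tested were called, and 71.4% called higher, where 23.0% of all genes were; 23.5% of all genes were lower. The median log2 fold change was 1.10 over the set and -0.07 over all genes. Of these calls, 17 higher ones and Tfeb were kept in all 16 alternative settings, while 13 were lost in at least 1. Not all 16 are separate checks. Here the values as deposited repeat the main fit. A replicate block holds the same libraries as the setting without WT_TAM replicate 4. The groups did not overlap in 31 of the 42 genes (73.8%), where 55.9% of all genes did not. Without WT_TAM replicate 4, 36 genes were higher and 1 lower, with a median of 1.29, where 32.1% of all genes were higher and 33.4% lower. With library totals and no size factor the median of all genes was -0.52, and 17 genes of the set were higher and 2, Tfeb and Smpd1, lower, where 14.8% of all genes were higher and 39.1% lower.

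**Figure D1:**
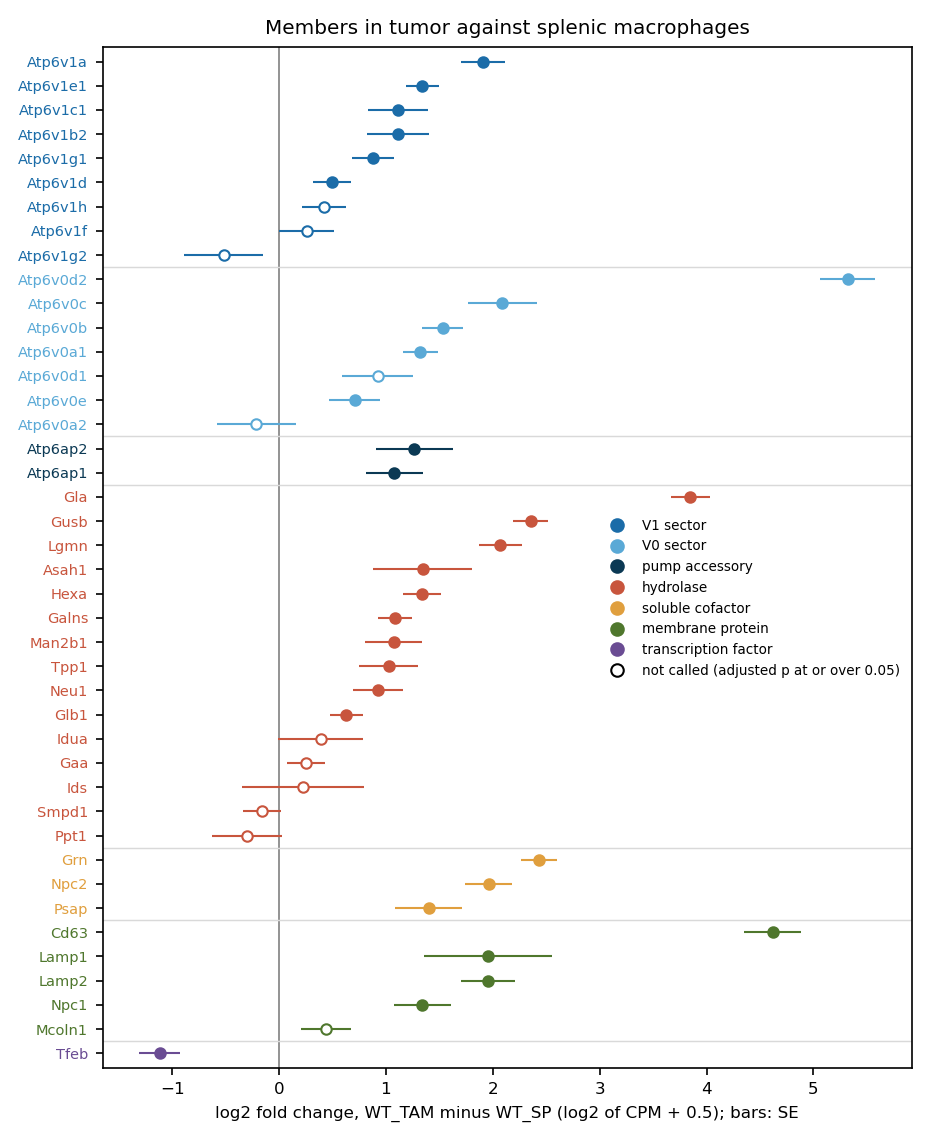
Log2 fold change of the 42 tested genes, WT_TAM minus WT_SP, on the log2(CPM + 0.5) scale, grouped by role, with bars for the SE; filled points were called at an adjusted p under 0.05. Atp6v0d2 (5.32), Cd63 (4.62) and Gla (3.85) lie farthest to the right and Tfeb (-1.12) is the only called gene to the left of 0.

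Among V1 subunits, 6 of 9 tested genes were higher and 0 lower. The catalytic subunit A had the largest rise: Atp6v1a had 292, 362, 313 and 211 CPM in WT_TAM and 76.4, 79.3 and 74.1 CPM in WT_SP and rose by 1.91 ± 0.21 on the log2 scale (SE; limma adjusted p = 0.00011). All 4 tumor libraries lay above all 3 splenic ones. The stalk subunit E, Atp6v1e1, rose by 1.34 ± 0.16 on the log2 scale, from 113 ± 6.32 CPM (SD, n = 3) to 287 ± 21.0 CPM (SD, n = 4). Atp6v1b2, Atp6v1c1, Atp6v1g1 and Atp6v1d, which encode subunits B, C, G and D, rose by 1.11, 1.12, 0.88 and 0.49. The Atp6v1d call was lost in 9 of 16 alternatives, that of Atp6v1b2 in 2, and those of Atp6v1c1 and Atp6v1g1 in 1 each. Atp6v1h (0.42) and Atp6v1f (0.26), of the regulatory subunit H and of subunit F, did not pass, nor did Atp6v1g2 (-0.52), a G subunit best known from neurons that had 1.83 ± 0.805 CPM in WT_TAM (SD, n = 4). Without WT_TAM replicate 4, Atp6v1h was called higher (0.58; limma adjusted p = 0.000345).

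In the membrane sector 5 of 7 tested genes were higher and 0 lower. Atp6v0d2 (chromosome 4, 19876841 to 19922605, minus strand, GRCm38) encodes the d2 form of the subunit that links V0 to the central stalk, a form known from osteoclasts and macrophages. It had 66.3, 67.3, 46.7 and 39.0 CPM in WT_TAM replicates 1 to 4, from 785, 687, 534 and 238 reads. In WT_SP it had 0.987, 0.926 and 0.660 CPM, from 14, 12 and 9 reads. The difference on the log2 scale was 5.32 ± 0.26 (SE; limma adjusted p = 1.31e-06), and the lowest tumor library was far above the highest splenic one. With so few splenic reads the size depended on the scale, from 4.28 with a pseudocount of 2 to 5.93 with voom. It was the largest change of the set at a pseudocount of 0.5, but at a pseudocount of 2 Cd63 was larger, at 4.54. Its partner form Atp6v0d1 had 97.0 ± 47.9 CPM (SD, n = 4) against 47.0 ± 3.68 CPM (SD, n = 3) and narrowly missed the threshold (log2 fold change 0.92; limma adjusted p = 0.0501); without WT_TAM replicate 4 it was called, at 0.63.

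Per kilobase of gene length, Atp6v0d2 made up 60.6, 55.5, 38.8 and 23.7% of the 2 d forms in WT_TAM replicates 1 to 4 and 2.92, 2.49 and 1.69% in WT_SP. The groups did not overlap, and the exact two-sided permutation p was 0.05714 for 4 against 3 libraries, where 0.02857 is the smallest p possible. It rests on the same Atp6v0d2 reads as the difference above and is not separate support. For the a subunit, which holds the proton half-channels, shares are given as a description, without a test. The a3 form, encoded by Tcirg1 (not one of the 47), held 61.4 ± 3.19% of the per-kilobase level of the 4 a forms in WT_TAM (SD, n = 4) and 36.8 ± 2.16% in WT_SP (SD, n = 3). Atp6v0a2 held 13.6 ± 4.83% and 37.9 ± 2.52%, and Atp6v0a1 24.9% and 25.1%. In CPM Atp6v0a2 itself did not pass the test (-0.21; limma adjusted p = 0.666), while Atp6v0a1 rose by 1.32.

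The ring subunits, which carry protons through the membrane, rose. Atp6v0c had 56.4, 28.5, 34.0 and 52.0 CPM in WT_TAM and 8.11, 14.0 and 6.97 CPM in WT_SP, so it rose by 2.09 ± 0.32 (log2, SE; limma adjusted p = 0.000872). The mouse genome holds near-identical processed copies of this gene, so its level is uncertain. Atp6v0b rose by 1.53 ± 0.19, from 90.5 ± 13.2 to 263 ± 40.9 CPM. Outside the ring, Atp6v0e rose by 0.71 ± 0.24, a call lost in 7 of 16 alternatives. Of the accessory subunits, Atp6ap1, which aids assembly of the pump, had 892, 966, 788 and 453 CPM in WT_TAM and 339.7, 357 and 363 CPM in WT_SP. Atp6ap2, the (pro)renin receptor, had 372, 372, 353 and 133 CPM against 115, 119 and 119.5 CPM. They rose by 1.08 and 1.27 (limma adjusted p = 0.0101 and 0.0189), and WT_TAM replicate 4 was the lowest tumor library in each, though still above the spleen. The Atp6ap2 call was lost in 6 of 16 alternatives and the Atp6ap1 call in 1.

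**Figure D2:**
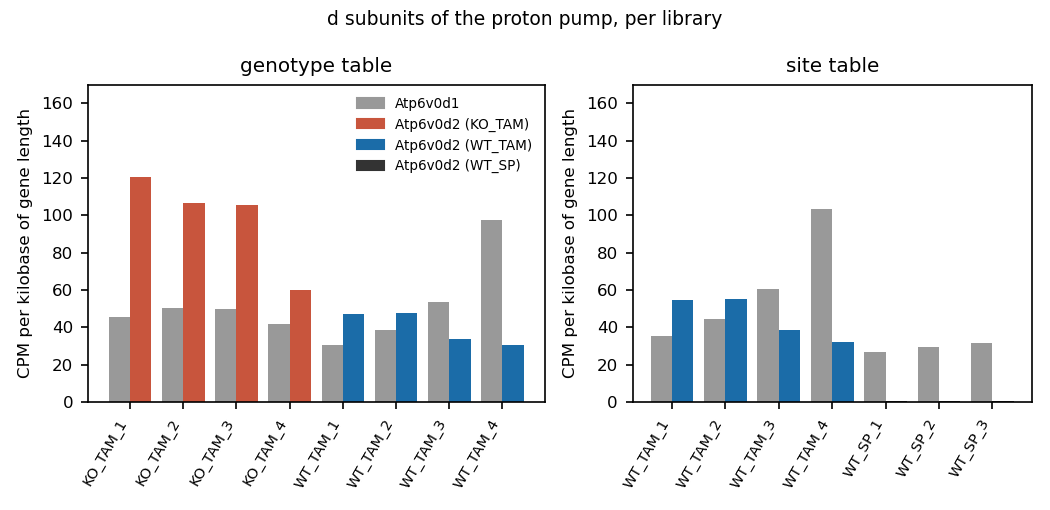
Level of the d subunit forms in CPM per kilobase of gene length for each library, Atp6v0d1 in light grey and Atp6v0d2 in color or dark grey, in the genotype table (left) and the site table (right). Atp6v0d2 is close to 0 in the 3 WT_SP libraries and highest in KO_TAM replicates 1 to 3, while Atp6v0d1 is highest in WT_TAM replicate 4.

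Of the 15 hydrolases 10 were higher in WT_TAM and 0 lower. Gla (chromosome X, 134588149 to 134601125, minus strand), whose enzyme removes galactose from glycolipids, had 94.8, 99.7, 87.8 and 74.8 CPM in WT_TAM and 6.34, 5.79 and 5.06 CPM in WT_SP. Gla differed by 3.85 ± 0.18 on the log2 scale (SE; limma adjusted p = 1.07e-06). Gusb, beta-glucuronidase, had 468, 365, 433 and 438 CPM against 83.3, 78.9 and 85.6 CPM, and Lgmn, the asparaginyl endopeptidase legumain, 1228, 1294, 1419 and 892 CPM against 256, 308 and 287 CPM. These rose by 2.35 ± 0.16 and 2.07 ± 0.20 on the log2 scale (limma adjusted p = 6.99e-06 and 5.7e-05). In all 3 genes every tumor library was above every splenic one.

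Smaller rises were called for Hexa (1.34), the alpha subunit of beta-hexosaminidase, Asah1 (1.35), acid ceramidase, Galns (1.09) and Man2b1 (1.07), which cut sulfated glycans and mannose, Tpp1 (1.03), a tripeptidyl peptidase, Neu1 (0.93), a sialidase, and Glb1 (0.63), beta-galactosidase. The calls of Man2b1, Tpp1, Neu1 and Glb1 were each lost in at least 1 alternative. Asah1 had 149 CPM in WT_TAM replicate 4 and 494 to 640.3 CPM in the other tumor libraries, so its groups overlapped, and its call was lost in 8 of 16 alternatives. The 5 that did not pass were Gaa (0.25), acid alpha-glucosidase, Idua (0.39) and Ids (0.22), which degrade glycosaminoglycans, Smpd1 (-0.16), acid sphingomyelinase, and Ppt1 (-0.30), palmitoyl-protein thioesterase. Without WT_TAM replicate 4, Idua, Ids and Gaa were called higher, at 0.78, 0.83 and 0.33. Ids had 13.3 CPM in that library and 72.3 to 72.9 CPM in the other tumor libraries.

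All 3 soluble cofactors were higher, and they had the highest levels per kilobase in WT_TAM. Psap, the precursor of saposins that present lipids to hydrolases, had 7923, 7002, 5567 and 3049 CPM in WT_TAM and 2207, 2054 and 2038 CPM in WT_SP, a log2 difference of 1.40 ± 0.31 (SE; limma adjusted p = 0.00613). Grn, which encodes progranulin, had 2957, 2682, 2269 and 2348 CPM against 509, 441 and 466 CPM. Npc2, the lumenal cholesterol carrier, had 791, 859, 739.6 and 1304 CPM against 223, 242 and 228 CPM. Grn and Npc2 rose by 2.44 ± 0.17 and 1.96 ± 0.22, and the tumor libraries lay above the splenic ones throughout. Per kilobase their levels in WT_TAM were 2245 ± 810.3 CPM for Psap, 1189 ± 147 for Grn and 825 ± 231 for Npc2 (SD, n = 4). Psap lay above Grn by more than their SDs, while Grn and Npc2 did not differ beyond theirs.

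Of 5 membrane proteins 4 were higher. Cd63 (chromosome 10, 128900989 to 128912822, plus strand), a tetraspanin of late endosomes and lysosomes, had 656, 628, 452 and 965 CPM in WT_TAM and 29.2, 21.2 and 28.5 CPM in WT_SP, a log2 difference of 4.62 ± 0.26 (SE; limma adjusted p = 2.88e-06). Lamp2 rose by 1.95 ± 0.25, from 140.1 ± 4.30 CPM (SD, n = 3) to 563 ± 151 CPM (SD, n = 4), and Npc1, the membrane partner of NPC2, by 1.34 ± 0.27. Lamp1 had 112, 76.5, 93.3 and 533 CPM in WT_TAM and 36.7, 32.6 and 41.3 CPM in WT_SP. Its log2 difference of 1.96 ± 0.60 (SE; limma adjusted p = 0.0257) was 1.33 ± 0.15 without WT_TAM replicate 4, the library that held 533 CPM, and the call was lost in 4 of 16 alternatives. Lamp1 shares 249 bases of exon (9.31%) with Grtp1 on the opposite strand, and Grtp1 was also highest in that library, at 6.89 CPM against 1.10 to 2.74 CPM in the other WT_TAM libraries. The strand setting of the counts was not given, so reads from the exon bases shared by such a pair cannot be told apart. The same holds for other genes with more than 1% of exon bases shared with a gene on the opposite strand, the largest shares being those of Hexa (12.78%, with Tmem202), Atp6v0b (11.85%, with Gm12841) and Atp6v0a2 (9.857%). Mcoln1 (0.44) did not pass with all libraries but was called at 0.64 once WT_TAM replicate 4 was left out (limma adjusted p = 0.000194).

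**Figure D3:**
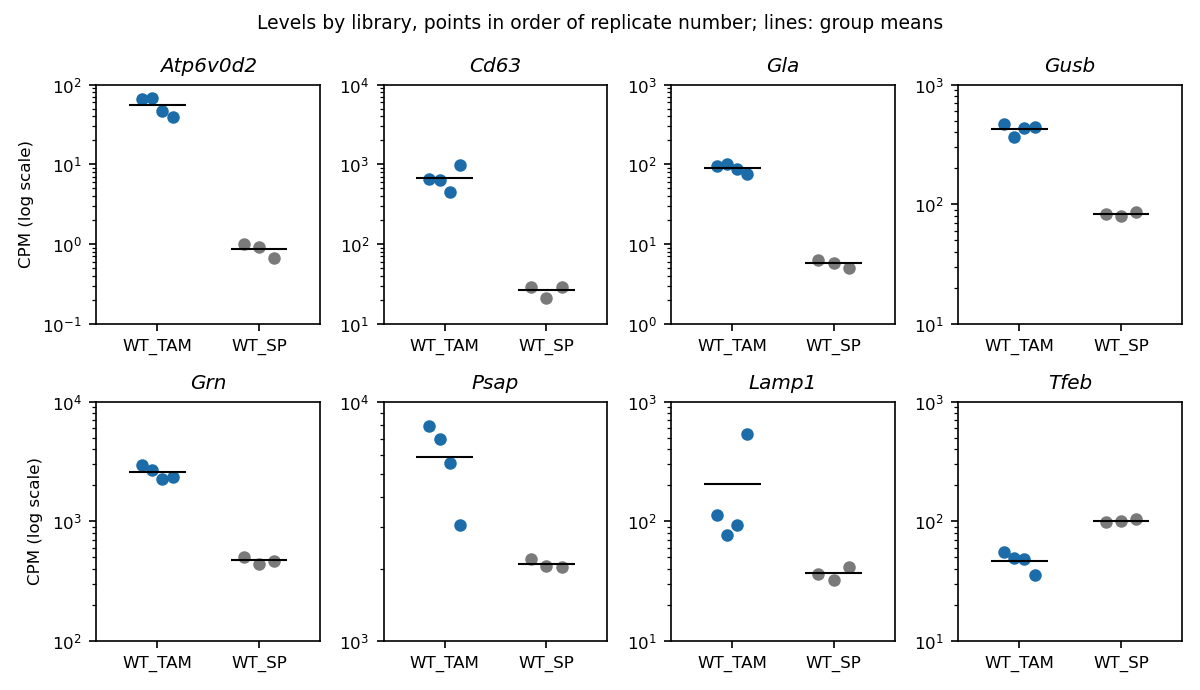
CPM (log scale) of 8 genes in each WT_TAM and WT_SP library of the site table, with points in order of replicate number and lines at the group means. Tfeb is the only gene of these with lower tumor libraries, and in Lamp1 the highest point is WT_TAM replicate 4.

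Tfeb (chromosome 17, 47737030 to 47792419, plus strand) was the called gene of the opposite direction. It had 55.6, 49.2, 48.1 and 35.4 CPM in WT_TAM and 98.3, 101 and 104 CPM in WT_SP, and fell by 1.12 ± 0.19 on the log2 scale (SE; limma adjusted p = 0.00144). Every tumor library was below every splenic one. The related factors Tfe3, Mitf and Tfec, picked out after their values were seen, rose by 1.04, 2.50 and 2.63 (limma adjusted p = 0.00636, 2.41e-05 and 2.06e-05), with Mitf at 32.2 ± 5.65 CPM in WT_TAM (SD, n = 4) and 5.25 ± 0.703 CPM in WT_SP (SD, n = 3).

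A wider list of 101 lysosomal genes outside the set, without cathepsins, gave 97 tested, 50 higher and 11 lower, with a median of 0.61. That is 62.9% called, where 46.5% of all genes were, and 51.5% called higher, where 23.0% of all genes were. Of all genes 23.5% were lower. Hydrolases and activators had 18 higher and 2 lower of 32, membrane and transport proteins 17 and 2 of 29, and genes of sorting to the lysosome 2 and 3 of 9. Pump assembly and partners were mixed, with 4 higher and 3 lower of 9. TFE factors and nutrient sensing had 9 higher and 1 lower of 18. The largest rises were of Gpnmb (4.90), a glycoprotein of phagocytes, Lyz2 (4.09), lysozyme, Slc15a3 (3.23), a peptide transporter, Dmxl2 (3.16), a partner in pump assembly, and Litaf (2.88). The largest falls were of Gga2 (-2.43), a sorting adaptor, Dmxl1 (-1.80) and Rogdi (-1.67), partners in pump assembly, Acp5 (-1.69), tartrate-resistant acid phosphatase, and Abcb9 (-1.65), a peptide transporter. Of the 2 related assembly proteins, Dmxl2 rose from 5.01 ± 0.481 to 49.9 ± 13.1 CPM while Dmxl1 fell from 27.1 ± 2.06 to 7.49 ± 1.13 CPM (SD, n = 3 and n = 4).

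Markers of other cells moved with these differences. In WT_SP the summed level of 8 B and plasma cell markers was 14208 to 16277 CPM, against 26.4 to 179.5 CPM in WT_TAM, that of 10 T and NK cell markers 1520 to 1654 CPM against 98.5 to 175 CPM, and that of 11 neutrophil markers 1127 to 3000 CPM against 145 to 388 CPM. The macrophage markers summed to 3405 to 3750 CPM in WT_SP and 30050 to 39510 CPM in WT_TAM. Most of this difference was Lyz2, with a mean of 1796 CPM in WT_SP and 30708 CPM in WT_TAM. Other macrophage genes rose less, Cd68 by 2.48 on the log2 scale. Csf1r had means of 1070 CPM in WT_SP and 1781 CPM in WT_TAM, and Adgre1 301 and 516 CPM. The 6 red pulp macrophage markers summed to 3570 to 4014 CPM in WT_SP against 348 to 720.3 CPM in WT_TAM. Sums were also higher in WT_SP for dendritic cell markers, at 480 to 506 against 34.1 to 79.0 CPM, erythroid markers, at 995 to 4752 against 172 to 771.5 CPM, and endothelial markers, at 187 to 196 against 26.7 to 66.8 CPM. They were higher in WT_TAM for fibroblast markers, at 440.5 to 991 against 8.88 to 48.3 CPM, and for RNA of the mitochondrial genome, at 12320 to 79428 against 6976 to 9083 CPM. Sums of eosinophil, basophil and mast cell markers and of tumor or epithelial markers overlapped. No gene of these lists was at 0 in all libraries of a group. In bulk samples fewer cells of a type and less RNA per cell cannot be told apart, and the part of these markers in the lysosomal differences was not tested.

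The second comparison sets tumor macrophages of floxed mice with LysM-Cre against those without it, a design meant to remove Sin1 from myeloid cells; the difference in Mapkap1 reads, given above, did not pass the test. No gene of the set passed the test: 0 of 42 were called, as were 0 (0.0%) of all 12922 genes tested with limma. At an unadjusted p under 0.05, 2 of the 42 differed, Atp6v0d2 upward and Gusb downward, where 18.3% of all genes did; limma voom likewise called 0. The groups did not overlap in 1 gene of the set (2.38%), which was higher in KO_TAM, where 15.1% of all genes did not overlap and 6.38% were higher without overlap. The median log2 fold change was 0.16, with 26 genes above 0 and 16 below (50.5% of all genes were above 0), and 0.02 without WT_TAM replicate 4, when 23 were above and 19 below. This comparison and the first share the WT_TAM libraries, so their changes are not independent.

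Atp6v0d2 was the gene without overlap. It had 146, 129.8, 128 and 73.2 CPM in KO_TAM and 57.5, 58.3, 41.2 and 36.9 CPM in WT_TAM, so that the lowest KO_TAM library stood above the highest WT_TAM one. With means of 119 ± 31.9 and 48.5 ± 11.0 CPM (SD, n = 4 each), the log2 difference was 1.27 ± 0.26 (SE), and it was 1.15 ± 0.24 without WT_TAM replicate 4. The limma adjusted p was 0.102, with a range of 0.0199 to 0.257 over 18 alternatives, of which 2 called it, no filter on low reads (0.0491) and a weight per library (0.0199); these called 0.225% and 2.98% of all genes. By p it ranked 60 of the 12922 genes. Its partner form Atp6v0d1 had 72.9, 80.3, 79.6 and 67.0 CPM in KO_TAM and 49.1, 61.3, 85.1 and 155 CPM in WT_TAM, with no call. Per kilobase, Atp6v0d2 held 72.5, 67.9, 67.8 and 58.9% of the d forms in KO_TAM, a mean of 66.8 ± 5.70% against 44.7 ± 16.8% in WT_TAM (SD, n = 4 each), and the groups overlapped. The exact two-sided permutation p of that difference was 0.05714, where 0.02857 is the smallest possible for 4 against 4, and 0.08571 without WT_TAM replicate 4. This share rests on the same Atp6v0d2 reads as the difference above, so its p is not separate support. Shares of the other subunits were not tested.

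**Figure D4:**
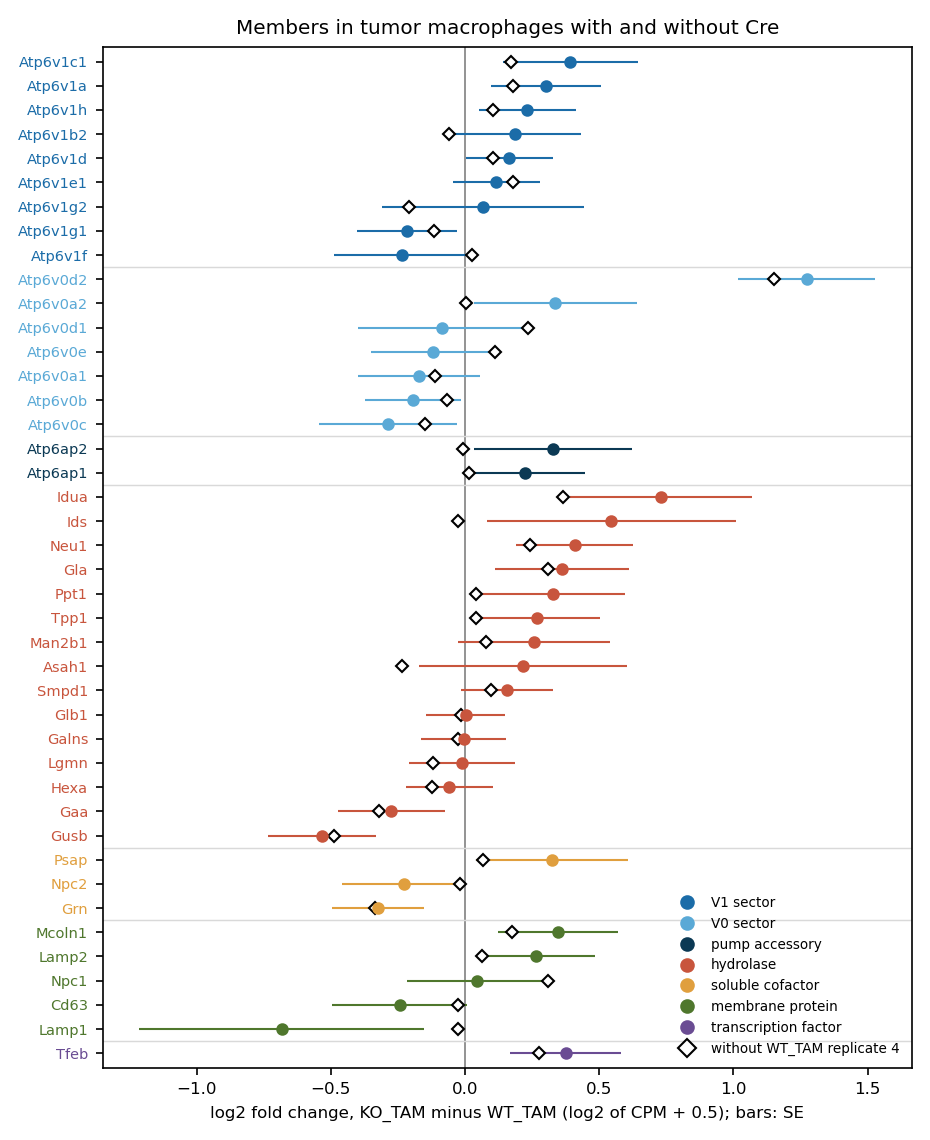
Log2 fold change of the 42 tested genes, KO_TAM minus WT_TAM, on the log2(CPM + 0.5) scale, grouped by role, with bars for the SE, and the same value without WT_TAM replicate 4 as open diamonds. None was called; Atp6v0d2 stays near 1.15 without that library, while Ids and Lamp1 move to -0.03.

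In the rest of the pump the V1 genes had 7 means above 0 and 2 below, and V0 genes 2 above and 5 below. Atp6v1c1 had 230.0, 187, 185 and 151 CPM in KO_TAM and 160.2, 194, 145 and 89.1 CPM in WT_TAM (log2 fold change 0.39 ± 0.25, SE), and Atp6v0c had 34.8, 25.7, 26.2 and 33.8 CPM against 49.0, 24.7, 30.0 and 49.1 CPM (-0.29 ± 0.26). Atp6ap1 had 748, 854, 721 and 781 CPM against 774, 837, 696 and 428 CPM, and Atp6ap2 had 313, 293, 329 and 335 CPM against 323, 322, 312 and 126 CPM. In these 4 genes the groups overlapped, and for the accessory subunits only WT_TAM replicate 4 lay clearly below the rest. The share of the a3 form was 62.7% in KO_TAM and 61.4% in WT_TAM.

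Among hydrolases Gusb had the second smallest p of the set. It had 275, 197, 257 and 333 CPM in KO_TAM and 407, 316, 383 and 414 CPM in WT_TAM, a log2 difference of -0.53 ± 0.20 (SE; limma adjusted p = 0.221), and 1 KO_TAM library lay above the lowest WT_TAM one. Gaa had 102, 106, 97.3 and 65.7 CPM against 119, 126, 99.3 and 101 CPM (-0.28 ± 0.20). Idua had 62.3, 86.0, 54.0 and 61.5 CPM against 53.5, 56.5, 42.0 and 18.0 CPM, and Neu1 had 190.1, 253, 171 and 198 CPM against 181, 180.1, 149 and 107 CPM. Their log2 fold changes of 0.73 and 0.41 were 0.37 and 0.24 without WT_TAM replicate 4. Ids had 57.2, 64.6, 56.4 and 71.4 CPM in KO_TAM and 62.7, 63.1, 64.2 and 12.6 CPM in WT_TAM, so its 0.54 rested on that library and was -0.03 without it.

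Grn had 2016, 1496, 1793 and 1994 CPM in KO_TAM and 2566, 2323, 2003 and 2220 CPM in WT_TAM, a log2 difference of -0.32 ± 0.17 (SE; limma adjusted p = 0.328), with the top KO_TAM library just above the lowest WT_TAM one. Psap had 8360, 6444, 5466 and 4927 CPM against 6876, 6064, 4915 and 2883 CPM, and Npc2 had 774, 666, 758 and 561 CPM against 687, 744, 653 and 1233 CPM. Lamp1 had 76.3, 73.4, 91.5 and 78.3 CPM in KO_TAM and 97.4, 66.3, 82.4 and 504 CPM in WT_TAM, so its -0.68 ± 0.53 was -0.03 without WT_TAM replicate 4. Tfeb had 53.9, 72.8, 45.5 and 46.7 CPM against 48.3, 42.6, 42.5 and 33.5 CPM (0.37 ± 0.21; limma adjusted p = 0.339), with groups that overlapped. Of the wider lysosomal list 0 of 97 were called, and 13 (13.4%) had groups that did not overlap, near the 15.1% of all genes. These 13, 5 higher and 8 lower in KO_TAM, include genes tied to the design. Lyz2, the locus that carries Cre, was lower, with means of 10333 against 27423 CPM. Rictor, of mTOR complex 2 like Sin1, was higher, with means of 65.8 against 42.4 CPM. Mapkap1 itself is also among the 97, with groups that overlapped.

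**Figure D5:**
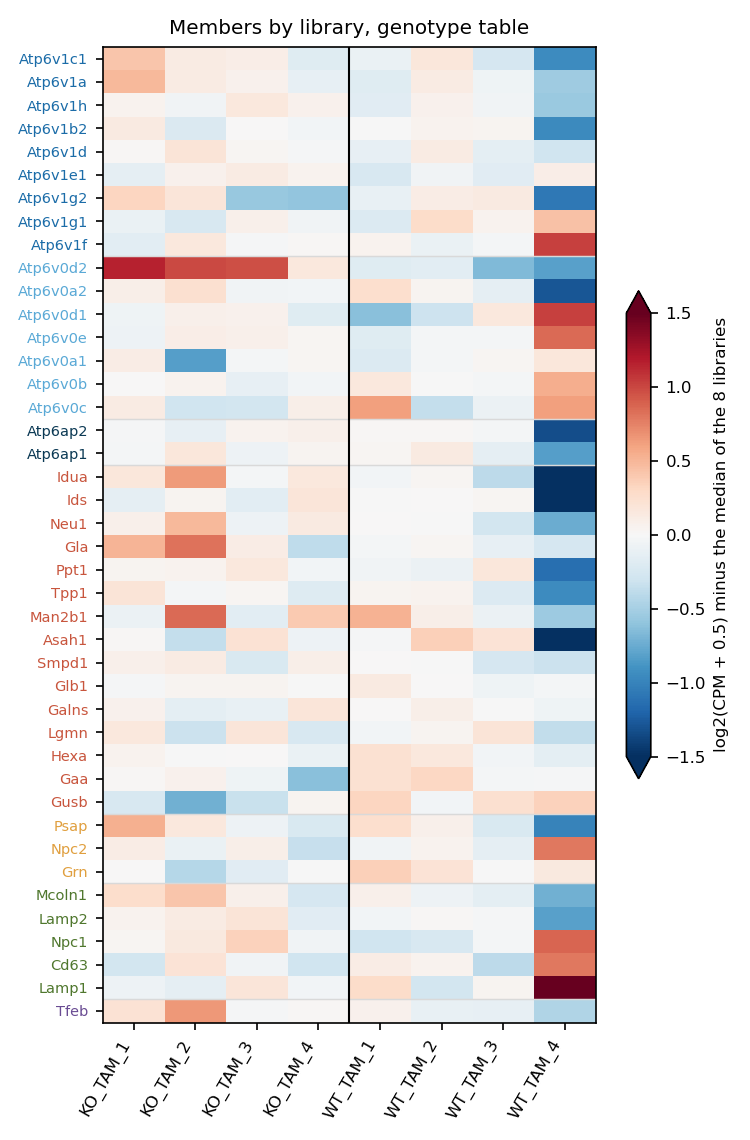
Log2(CPM + 0.5) of the 42 tested genes in each library of the genotype table, minus the gene's median over the 8 libraries, with colors capped at 1.5 in each direction and genes grouped by role. WT_TAM replicate 4 is the most strongly colored column, and in the Atp6v0d2 row KO_TAM replicates 1 to 3 are the most strongly colored.

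Against the mean of the other WT_TAM libraries, WT_TAM replicate 4 was more than 2-fold higher in 4 of the 42 genes and more than 2-fold lower in 8. Together this was 28.6%, close to the 30.3% over 12009 tested genes with a length recovered from the values. Over the 42 genes its log2 ratio had a Spearman correlation of -0.38 with gene length, and over those 12009 genes -0.30, given as a description. KO_TAM replicate 2, which also stood apart over all genes, was within 2-fold of its group in all 42, where 14.1% of those 12009 genes were beyond 2-fold. Summed macrophage markers were 7767 to 19343 CPM in KO_TAM and 26532 to 37350 CPM in WT_TAM. This list includes Lyz2, the locus that carries Cre. Most of the difference was Lyz2, with a mean of 10333 CPM in KO_TAM and 27423 CPM in WT_TAM. Csf1r had means of 1456 CPM in KO_TAM and 1572 CPM in WT_TAM, and Cd68 1142 and 1262 CPM. Adgre1 had a higher mean in KO_TAM, at 850 against 455 CPM, with groups that overlapped. Summed eosinophil, basophil and mast cell markers were 117 to 533 against 14.1 to 91.5 CPM, and endothelial markers 70.9 to 137 against 25.3 to 57.9 CPM. Summed neutrophil markers were 520.3 to 1475 CPM in KO_TAM and 137 to 336 CPM in WT_TAM, tumor or epithelial markers 809 to 1692 against 269 to 668 CPM, fibroblast markers 30.6 to 237 against 389 to 858 CPM, and RNA of the mitochondrial genome 4402 to 17665 against 10693 to 68786 CPM. Their part in the values of the lysosomal genes was not tested.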

How the data were processed

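The build mm10 and the tools TopHat2, HISAT2, HISAT, SAMtools, HTSeq and DESeq2 are named, per the submitters' processing notes. Tool roles, tool versions, strand setting and annotation were not given in the sources used here. Both tables the authors deposited hold values that are not read counts, so their unit is taken as a score: each is a whole number of reads divided by gene length, library total and size factor, times a factor of 1 of the libraries that cycles from row to row, as found from the values themselves. Reads were recovered from these steps, with 99.95% of the genotype table's non-zero values and 100% of the site table's whole within 0.001 reads. Gene lengths were also found from the values, as the shortest that made all reads of a gene whole. For 1622 genes a multiple nearer the GENCODE length was taken. Of 23732 genes compared, 97 had the median GENCODE transcript length. Levels per kilobase and correlations with length rest on these lengths. Whole reads failed for 98 values of 35 genes between genotypes, none in the set described here. Of these, 49 were taken from the site table and most others restored by undoing a shift of a round amount. Fdps in KO_TAM replicates 1 and 3 had 2 candidates each. There a digit was put back, with the candidate chosen by the size factors. Genes without a length (13573, negative values) are not in the set. Those with enough reads were tested, with the sign dropped, and count among all genes. Between genotypes 12922 genes were tested, of which 12009 had a length. All columns were used, so 0 were left out.

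CPM divide reads by the product of library total and the authors' size factor. Log2(CPM + 0.5) was fitted with limma 3.58.1 (R 4.3.3), with a mean-variance trend, robust empirical Bayes and two-sided tests, for genes that reached, in as many libraries as the smaller group holds, the CPM that 10 reads give in a library of median depth, and 15 reads in all. P-values were adjusted by Benjamini-Hochberg over all genes tested, with a threshold of 0.05. Each comparison used its own table and 2 groups, with no covariate; CPM of WT_TAM differ between the tables by their factors. Fold changes on this scale understate the change of low genes. The plan named a count test for plain counts, which these values are not. The code was tested on simulated data. No replicate pair was close enough to be 1 library deposited again.

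Values in every library are given for the called genes with the 8 largest changes in each direction (the 5 largest of those tested where none was called), for Tfeb, Lamp1, Atp6ap1 and Atp6ap2, and for the 3 highest per length in WT_TAM; Atp6v1a, Atp6v0d1 and single libraries elsewhere were added after their values were seen. Of the wider lysosomal list the 5 largest called changes in each direction are named. The members, roles, lists and tests were chosen with earlier results of these data known. Alternatives were no filter, pseudocounts of 0.1 and 2, TMM factors, no factor, voom, array weights, values as deposited, a replicate block, each library left out in turn, and WT_TAM replicate 4 and KO_TAM replicate 2 left out together. Gene positions are from GENCODE on GRCm38.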

Additional observations from a re-analysis of the deposited data

Results flagged for a closer look

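In 84 groups of 4 libraries (each tested gene of the set in WT_TAM and in KO_TAM), 10 had a highest or lowest library far from the other 3 by Dixon's test at its 95% level, where chance alone flags about 1 in 20 groups. In 9 of them the library was WT_TAM replicate 4. It was high for Lamp1 at 504.3 CPM (others 66.3 to 97.4), Atp6v0e at 540.3 CPM (264 to 294), Atp6v1f at 374.3 CPM (172 to 190.2), Npc1 at 124.1 CPM (54.7 to 66.1) and Npc2 at 1233 CPM (653 to 744). It was low for Ids at 12.55 CPM (62.7 to 64.2), Atp6ap2 at 125.8 CPM (312 to 323), Atp6v1b2 at 153.0 CPM (295 to 309) and Lamp2 at 319.1 CPM (548 to 571). The remaining one was Smpd1 in KO_TAM replicate 3, at 42.85 CPM (others 53.0 to 54.7). The 84 groups share the same libraries and are not independent, and the flagged share over all genes was not computed. WT_TAM replicate 4 was beyond 2-fold of its group in 28.6% of the set and 30.3% of all tested genes with a recovered length. The count is therefore not read as a trait of the set.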

How the results depend on the processing

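Between tumor and spleen the alternatives called 17 to 36 genes of the set higher and 1 or 2 lower. With no size factor, 2137 of all genes were higher and 5635 lower and 17 and 2 of the set, and 27.5% of calls were higher in place of 49.4%. Signs were then turned for Atp6v1f (-0.22), Atp6v1h (-0.053), Gaa (-0.22), Ids (-0.24), Idua (-0.080) and Mcoln1 (-0.036). A weight per library turned Atp6v0a2 (0.16). With each library left out in turn, 22 to 36 genes of the set were higher, 36 without WT_TAM replicate 4 and 22 without WT_SP replicate 1, and 2492 to 4479 of all genes were higher and 2473 to 4666 lower; signs turned for Atp6v0a2 (-0.40 to 0.15) and Ppt1 (-0.45 to 0.016). The 5 genes of the set with too few reads were tested only without the filter.

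Between genotypes 0 genes of the set were called except under 2 settings. Without a filter on low reads 1 gene (Atp6v0d2) and 17 higher and 62 lower of all genes were called, and with a weight per library 1 gene (Atp6v0d2) and 140 and 245. The values as deposited gave 4 higher among all genes. Without WT_TAM replicate 4 and KO_TAM replicate 2, 21 were higher and 42 lower, with 0 of the set. Leaving out 1 library at a time gave 0 to 0 calls in each direction. A weight per library turned Asah1 (-0.093), Atp6ap1 (-0.0021), Atp6v0a1 (0.045), Atp6v0a2 (-0.015), Atp6v0d1 (0.21), Atp6v0e (0.084), Atp6v1g2 (-0.22), Glb1 (-0.021), Ids (-0.025), Man2b1 (-0.11) and Npc2 (0.019). TMM factors turned Galns (0.027) and Lgmn (0.021), no factor Galns (0.066), Hexa (0.012) and Lgmn (0.060), and voom Atp6v1g2 (-0.017). Leaving libraries out turned the sign of Asah1 (-0.23 to 0.42), Atp6ap1 (-0.033 to 0.34), Atp6ap2 (-0.0070 to 0.44), Atp6v0a1 (-0.27 to 0.10), Atp6v0a2 (-0.055 to 0.52), Atp6v0d1 (-0.32 to 0.23), Atp6v0e (-0.23 to 0.11), Atp6v1b2 (-0.059 to 0.28), Atp6v1f (-0.35 to 0.026), Atp6v1g2 (-0.33 to 0.21), Galns (-0.067 to 0.042), Glb1 (-0.023 to 0.042), Ids (-0.047 to 0.74), Lamp1 (-1.0 to 0.013), Lgmn (-0.12 to 0.077), Man2b1 (-0.12 to 0.43) and Npc1 (-0.082 to 0.31) in at least 1 case, which includes the case without both libraries. The cause of the changes in calls and signs was not tested.

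Same-numbered libraries had r from -0.158 to 0.196 between genotypes and from -0.090 to 0.095 between sites. Libraries of unlike number had r from -0.318 to 0.295 and from -0.096 to 0.152. No pairing by number was seen, but so few libraries, with WT_TAM replicate 4 apart, cannot exclude it. With a replicate block, 0 genes were called between genotypes. Between sites, where only replicates 1 to 3 have partners and WT_TAM replicate 4 drops out, 4419 genes were higher and 4597 lower, 36 and 1 of the set, with Ppt1 at 0.016 and Atp6v0a2 at 0.15. Depth set no limit on the 42 tested genes other than Atp6v1g2, and in the spleen Atp6v0d2, which rested on 9 to 14 reads.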
